A study of Mus musculus with 10 samples.

Results

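Membralin, encoded by Tmem259, and the 7 genes of its ubiquitin ligase machinery, Rnf185, Rnf5, Tmub1, Tmub2, Ube2k, Ube2d3 and Vcp, were examined in mouse motor cortex. The 8 genes were chosen by name from the 35275 genes of the deposited table, and all 8 were measured in every library. The mice were C57BL/6 and 22 days old when motor cortex RNA was taken for sequencing, with 5 libraries from mice whose astrocytes were made to lack membralin (labelled Astro-mem KO, here KO) and 5 from wild type mice (WT). The labels call the 5 libraries of each group biological repeats. The sources used here do not give the Cre driver, the deleted exons, or whether WT mice carried a floxed allele. The values are FPKM, the fragments assigned to a gene scaled by the length of the gene and by the fragments of the library.

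Proteins that fail to fold in the endoplasmic reticulum (ER), or are no longer needed there, are tagged with ubiquitin by ligases of the ER membrane, pulled into the cytosol and degraded by the proteasome, a route called ER-associated degradation. In human cells membralin is known as a scaffold of 1 such ligase, which it forms with the RING ligase RNF185 and with either of the ubiquitin-like membrane proteins TMUB1 and TMUB2. UBE2K and UBE2D3 are enzymes that hand over the ubiquitin, RNF5 is the closest relative of RNF185, and VCP, also known as p97, is the ATPase that extracts the tagged protein. The comparison asks how the messenger RNA of these partners stood in cortex whose astrocytes were targeted for membralin. In bulk tissue, fewer cells of a type and less RNA per cell cannot be told apart, and cells other than astrocytes keep the gene.

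The library labelled KO3 went against its label in the targeted gene. It held the highest Tmem259 level of the 10 libraries. Gfap, the intermediate filament gene of astrocytes, was 106 FPKM in it, against 426 to 673 FPKM in the other 4 KO libraries and 79.4 to 114 FPKM in WT. The library labelled KO3 is part of each KO value that follows, except where its omission is stated.

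The promoter of Vcp is shown because Vcp was the 1 gene of the 8 that passed the test. RefSeq held promoter windows, 250 bases before the start and 50 from it on, for 5 of the 8 genes. The Vcp window lies at chr4:43000458-43000757 on the minus strand of GRCm38.p6. Capitals mark CCAAT boxes on either strand (CCAAT or ATTGG) and 1 unfolded protein response element (TGACGTGG).
Vcp promoter: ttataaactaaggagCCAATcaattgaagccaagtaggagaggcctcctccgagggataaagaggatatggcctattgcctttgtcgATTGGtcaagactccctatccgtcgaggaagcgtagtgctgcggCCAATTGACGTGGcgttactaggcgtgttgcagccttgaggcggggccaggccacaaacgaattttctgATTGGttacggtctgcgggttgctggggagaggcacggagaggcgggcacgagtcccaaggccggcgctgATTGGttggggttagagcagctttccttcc

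Counted from the start base as 0, the CCAAT boxes of this window begin at positions -235, -163, -119, -50 and 20. The unfolded protein response element, an ER stress motif described in human cells, begins at position -114, directly after the CCAAT box at -119, and the 6 matches do not overlap. It was searched on both strands and was held by 0.676% of the 32851 mouse promoter windows, while 37.4% held a CCAAT box. Of the other genes with a window, Rnf185 held 1 CCAAT box and Ube2d3 held 1, whereas Tmub1 and Ube2k held none. The 2 longer ER stress elements, ERSE (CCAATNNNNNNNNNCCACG, 0.119% of windows) and ERSE-II (0.0365%), both of which contain a CCAAT box, had no match in the windows of the 5 genes. A match of letters is a description of the window and not a site in use.

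Tmem259, the membralin gene (ENSMUSG00000013858, mm10 chromosome 10, 79974948 to 79984330, minus strand), measured 20.1, 18.5, 34.4, 16.9 and 26.2 FPKM in KO1 to KO5, against 25.5, 23.8, 25.0, 32.4 and 30.4 FPKM in WT1 to WT5. KO1, KO2 and KO4 lay below every WT library, KO5 lay within the WT range, and the library labelled KO3 lay above it, so the groups overlapped. The means were 23.2 ± 7.16 FPKM in KO and 27.4 ± 3.73 FPKM in WT (SD, n = 5 each). The difference did not pass the test at a limma adjusted p of 0.275, with a log2 fold change of -0.27 (SE 0.16, 95% interval -0.63 to 0.09). The exact two-sided permutation p was 0.214, where the smallest that 5 against 5 allows is 0.00794.

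Without the library labelled KO3, Tmem259 averaged 20.4 ± 4.05 FPKM in KO (SD, n = 4), and the log2 fold change of -0.42 passed the test (limma adjusted p = 0.0278; exact permutation p = 0.0635). That library was the highest of its group, so the fall without it is a description of the other 4. The spread within KO was wide, with a coefficient of variation of 30.9% in KO and 13.6% in WT. Counting error alone would give 2.24% in KO and 2.002% in WT, from 1432 to 2777 fragments per KO library and 1988 to 3037 per WT library. The other 7 genes varied by 4.24% to 12.9% within a group.

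**Figure D1:**
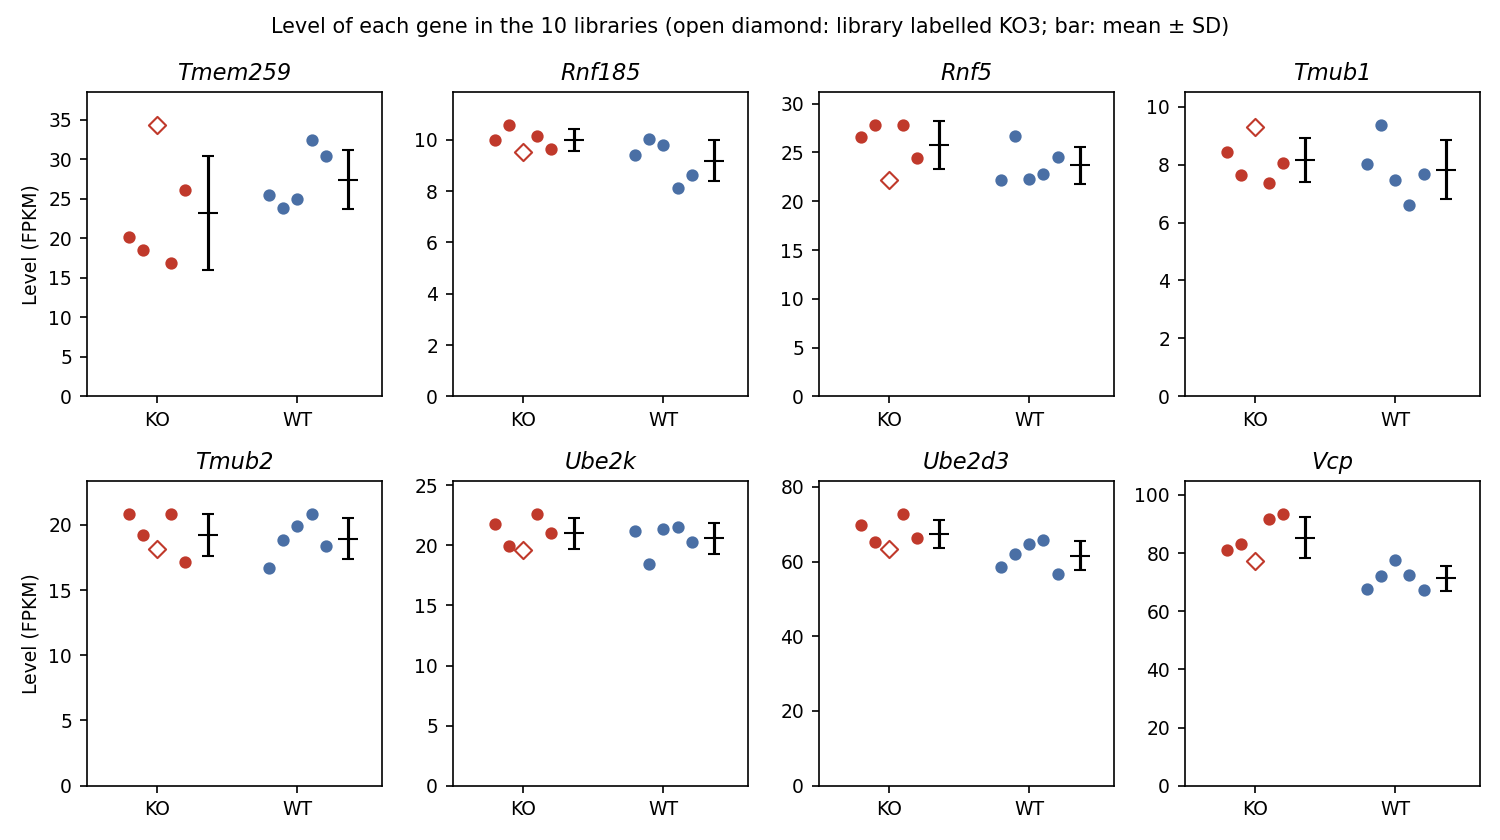
Level of the 8 genes in FPKM, KO left and WT right in each panel; points run from replicate 1 to 5, the open diamond is the library labelled KO3, and the bar is the mean ± SD (n = 5). Tmem259 spans 16.9 to 34.4 FPKM in KO and 23.8 to 32.4 FPKM in WT, and 4 of 5 KO libraries lie above every WT library for Vcp.

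A position on the opposite strand is shared with another gene. Grin3b, a subunit gene of glycine-binding NMDA-type receptors, overlaps 2243 bases of the Tmem259 span, and nothing states that the library kit kept strand, so fragments from the overlap cannot be told apart. Exons of Grin3b share 1059 of the 4663 exonic bases of all Tmem259 transcripts in GENCODE M21. For the coding transcripts of Tmem259 they share only 73 of 2297 bases. Grin3b was nearly silent, at 0.30 ± 0.11 FPKM in KO and 0.18 ± 0.07 FPKM in WT (SD, n = 5 each), which is 14 to 36 fragments per KO library and 5 to 21 per WT library. The gene length in the deposited table for Tmem259, 3487 bases, is that of a transcript with a retained intron (Tmem259-205 in GENCODE M21). Its longest coding transcript has 2225 bases, by which length the means would be 36.4 FPKM in KO and 43.0 FPKM in WT. The fold change does not depend on this length except through the pseudocount.

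The RING ligase genes did not pass the test. Rnf185, the catalytic partner of membralin (chromosome 11, 3415982 to 3452363, minus strand), measured 9.99, 10.6, 9.52, 10.1 and 9.65 FPKM in KO1 to KO5, against 9.39, 10.03, 9.78, 8.11 and 8.61 FPKM in WT1 to WT5. All 5 KO libraries lay above the WT mean, and 2 lay above the highest WT library. The means were 9.98 ± 0.42 FPKM in KO and 9.18 ± 0.81 FPKM in WT (SD, n = 5 each), a log2 fold change of 0.11 with a 95% interval of -0.02 to 0.25 (limma adjusted p = 0.236; exact permutation p = 0.111).

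Rnf5, the relative of Rnf185 that acts on partly overlapping clients in human cells (chromosome 17, 34601091 to 34603690, minus strand), measured 26.5, 27.8, 22.1, 27.8 and 24.5 FPKM in KO1 to KO5, against 22.2, 26.6, 22.3, 22.8 and 24.5 FPKM in WT1 to WT5. KO2 and KO4 were above every WT library, and the library labelled KO3 was below every WT library. The means were 25.8 ± 2.44 FPKM in KO and 23.7 ± 1.90 FPKM in WT (SD, n = 5 each), a log2 fold change of 0.11 with a 95% interval of -0.05 to 0.27 (limma adjusted p = 0.299; exact permutation p = 0.206). With median-of-ratios scaling in place of the FPKM scale, the log2 fold changes were 0.021 for Rnf185 and 0.019 for Rnf5. The main transcripts of the relatives share no stretch longer than 15 bases, so a longer read tells them apart.
Shared run of Rnf5 and Rnf185: aaagctggcatcagc

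The ubiquitin-like partners also did not pass. Tmub1 (chromosome 5, 24445458 to 24447854, minus strand) measured 8.44, 7.63, 9.29, 7.36 and 8.06 FPKM in KO1 to KO5, against 8.03, 9.38, 7.47, 6.60 and 7.67 FPKM in WT1 to WT5. Every KO library lay within the WT range. The log2 fold change was 0.06, with a 95% interval of -0.13 to 0.24 (limma adjusted p = 0.675; exact permutation p = 0.556). Tmub1 was the least abundant of the 8 genes per length, with 286 to 372 fragments per KO library and 272 to 432 per WT library, and counting error gave a coefficient of variation of 5.55% in KO and 5.51% in WT.

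Tmub2 (chromosome 11, 102284931 to 102289237, plus strand) measured 20.8, 19.3, 18.2, 20.8 and 17.2 FPKM in KO1 to KO5, against 16.7, 18.8, 19.9, 20.8 and 18.4 FPKM in WT1 to WT5. Every KO library lay within the WT range here too. The log2 fold change was 0.02, with a 95% interval of -0.13 to 0.17 (limma adjusted p = 0.856; exact permutation p = 0.778). With median-of-ratios scaling in place of the FPKM scale, the values were -0.031 for Tmub1 and -0.072 for Tmub2, so neither gene has a settled direction.

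Of the ubiquitin-conjugating enzymes, Ube2k (chromosome 5, 65537233 to 65598988, plus strand), which builds K48-linked ubiquitin chains, measured 21.8, 19.9, 19.6, 22.6 and 21.1 FPKM in KO1 to KO5, against 21.2, 18.5, 21.3, 21.6 and 20.3 FPKM in WT1 to WT5. The groups lay on top of each other, with 2 KO libraries above the highest WT library. The log2 fold change was 0.03, with a 95% interval of -0.10 to 0.15 (limma adjusted p = 0.772; exact permutation p = 0.651), and it was -0.066 with median-of-ratios scaling.

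Ube2d3 (chromosome 3, 135438297 to 135467178, plus strand), a broadly acting enzyme that places the first ubiquitin, measured 69.8, 65.4, 63.2, 72.8 and 66.2 FPKM in KO1 to KO5, against 58.4, 61.9, 64.8, 65.7 and 56.8 FPKM in WT1 to WT5. All 5 KO libraries were above the WT mean, and KO1, KO4 and KO5 were above every WT library. The means were 67.5 ± 3.78 FPKM in KO and 61.5 ± 3.91 FPKM in WT (SD, n = 5 each), a log2 fold change of 0.13 with a 95% interval of 0.01 to 0.26. The difference did not pass after adjustment over all genes (limma adjusted p = 0.137, unadjusted 0.0417; exact permutation p = 0.0476). With median-of-ratios scaling the log2 fold change was 0.034, with a 95% interval of -0.067 to 0.136 (limma adjusted p = 0.684). The median log2 fold change of all genes was 0.078 on the FPKM scale and -0.002 with that scaling.

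Vcp, the extracting ATPase (ENSMUSG00000028452, chromosome 4, 42979963 to 43000507, minus strand), rose in KO cortex and was the 1 gene of the 8 called at a limma adjusted p under 0.05. It measured 81.0, 83.3, 77.2, 91.6 and 93.5 FPKM in KO1 to KO5, against 67.6, 72.0, 77.5, 72.4 and 67.2 FPKM in WT1 to WT5. KO1, KO2, KO4 and KO5 lay above every WT library, while the library labelled KO3 lay just below the highest, WT3, so the groups met at 1 library. The means were 85.3 ± 6.97 FPKM in KO and 71.3 ± 4.23 FPKM in WT (SD, n = 5 each), a 1.196-fold ratio. The log2 fold change was 0.25 (SE 0.06, 95% interval 0.11 to 0.39, limma adjusted p = 0.0299; exact permutation p = 0.0159).

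Among all 14497 genes tested, 9.77% were called higher and 3.51% lower, so 1 higher call and 0 lower calls among 8 genes stand near that background. The Vcp call ended with median-of-ratios scaling (log2 fold change 0.16, limma adjusted p = 0.0920) and when any 1 of KO1, KO2, KO4, KO5, WT1, WT2 or WT5 was left out, with a limma adjusted p of up to 0.0829. The fold change stayed between 0.22 and 0.29 over the 10 libraries left out in turn. Vcp shares 64.7% of its 31-base windows with Vcp-rs, a related sequence, which was listed at only 0.97 ± 0.18 FPKM in KO and 0.80 ± 0.20 FPKM in WT (SD, n = 5 each).

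**Figure D2:**
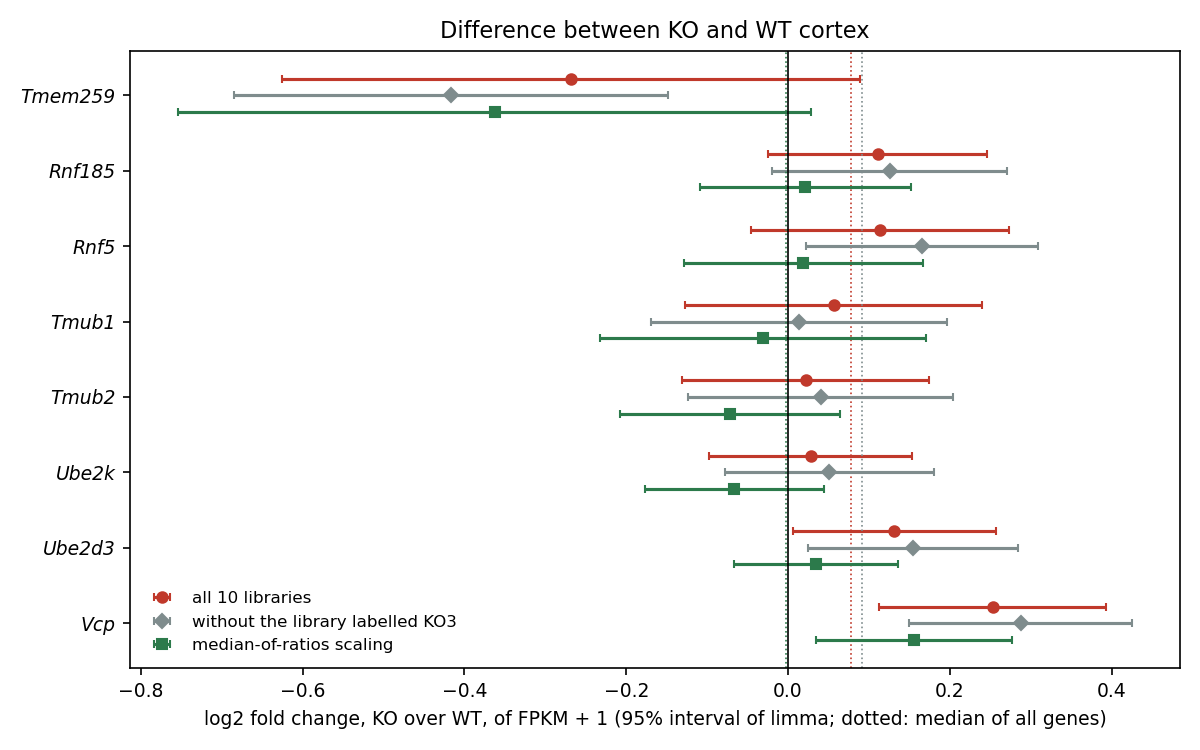
log2 fold change of FPKM + 1, KO over WT, for the 8 genes with its limma 95% interval, over all 10 libraries, without the library labelled KO3, and with median-of-ratios scaling; dotted lines are the median of all genes in each fit. Vcp lies at 0.25 over all libraries, 0.29 without the library labelled KO3 and 0.16 with the other scaling, while the Tmem259 interval over all libraries runs from -0.63 to 0.09.

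Without the library labelled KO3, 2 of the 8 genes were called, Vcp higher (log2 fold change 0.29, limma adjusted p = 0.0074) and Tmem259 lower. In that fit 19.6% of all genes were called higher and 6.36% lower. Rnf5 (0.17, adjusted p = 0.0836) and Ube2d3 (0.15, adjusted p = 0.0753) still did not pass the limma test. Among the 7 partners, the library labelled KO3 was the lowest KO library for 5 (Rnf185, Rnf5, Ube2k, Ube2d3 and Vcp) and the highest for Tmub1. How often it was lowest over all genes was not counted, so this is no result about the partners. Its median-of-ratios scaling factor was 0.990, against 1.04 to 1.07 in the other KO libraries.

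By level per length, averaged over the 10 libraries, the order was Vcp (78.3 FPKM), Ube2d3 (64.5), Tmem259 (25.3), Rnf5 (24.7), Ube2k (20.8), Tmub2 (19.1), Rnf185 (9.58) and Tmub1 (7.99 FPKM). Neighbours kept this order in all 10 libraries except for 2 pairs. Tmem259 exceeded Rnf5 in 2 KO and 4 WT libraries, and Ube2k exceeded Tmub2 in 5 KO and 4 WT libraries. The order of Tmem259 and Ube2d3 rests on table lengths that are not those of their longest coding transcripts. By the coding length Ube2d3 would be at 46.1 FPKM in KO and 42.0 FPKM in WT. The other 6 genes carry the length of their longest coding transcript. Opposite-strand neighbours of the other genes were low or silent: Gm20463 in Rnf5 was listed at 0 in all 10 libraries, 4930539J05Rik at the start of Ube2d3 averaged 1.78 ± 0.69 FPKM in KO and 1.90 ± 0.48 FPKM in WT (SD, n = 5 each), and 1700022I11Rik at the end of Vcp averaged 0.030 ± 0.019 FPKM in KO and 0.023 ± 0.027 FPKM in WT (SD, n = 5 each).

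Ratios of 2 genes within a library do not depend on how libraries were scaled. Membralin to its catalytic partner, Tmem259 to Rnf185, was 2.01, 1.74, 3.61, 1.67 and 2.71 in KO1 to KO5, against 2.72, 2.37, 2.56, 3.99 and 3.53 in WT1 to WT5. KO1, KO2 and KO4 were below every WT library, and the library labelled KO3 was second highest of the 10. The log2 ratio differed by -0.40 (exact permutation p = 0.159, 0.317 adjusted over the 4 ratios), and by -0.57 without the library labelled KO3 (exact permutation p = 0.0476, adjusted 0.190). That library was singled out by its high Tmem259 level and had the highest ratio of its group. The value without it is therefore a description of KO1, KO2, KO4 and KO5.

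The ratio of the ligases, Rnf5 to Rnf185, averaged 2.58 ± 0.16 in KO and 2.59 ± 0.26 in WT (SD, n = 5 each; exact permutation p = 0.960). Tmub1 to Tmub2 averaged 0.43 ± 0.06 in KO and 0.42 ± 0.07 in WT (SD, n = 5 each; exact permutation p = 0.794). Ube2k to Ube2d3 averaged 0.311 ± 0.005 in KO and 0.335 ± 0.026 in WT (SD, n = 5 each), a log2 difference of -0.10 (exact permutation p = 0.0952, adjusted 0.317). Its KO libraries spanned only 0.305 to 0.318, inside the WT range of 0.299 to 0.362. WT2 was the 1 WT library below the KO values, and leaving out 1 library in turn gave an exact permutation p, not adjusted over the ratios, between 0.0159 (without WT2) and 0.190.

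The genes whose profile lay nearest to that of Tmem259 were found among 8240 protein-coding genes averaging 5 FPKM or more, by the root mean square difference of centred log2(FPKM + 1) over the 10 libraries. They were 1110008P14Rik at 0.13, Rph3a at 0.14, Whrn at 0.16, Git1 at 0.16 and Kcnj16 at 0.17, where the median gene was at 0.36 and a flat profile would be at 0.31. In each of the 5 the library labelled KO3 was the highest KO library. Rph3a, a synaptic vesicle protein gene, averaged 86.6 ± 17.9 FPKM in KO and 114 ± 5.98 FPKM in WT (SD, n = 5 each). The log2 fold changes were -0.31 for 1110008P14Rik, -0.42 for Rph3a, -0.34 for Whrn, -0.38 for Git1, a signalling scaffold gene of synapses, and -0.21 for Kcnj16. These genes were chosen for their likeness to Tmem259 over the same libraries, so the values are a description with no test. The partners of membralin ranked from 2592 (Tmub1) to 6768 (Rnf5) on this measure. The points share their libraries, so likeness here describes these 10 samples.

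**Figure D3:**
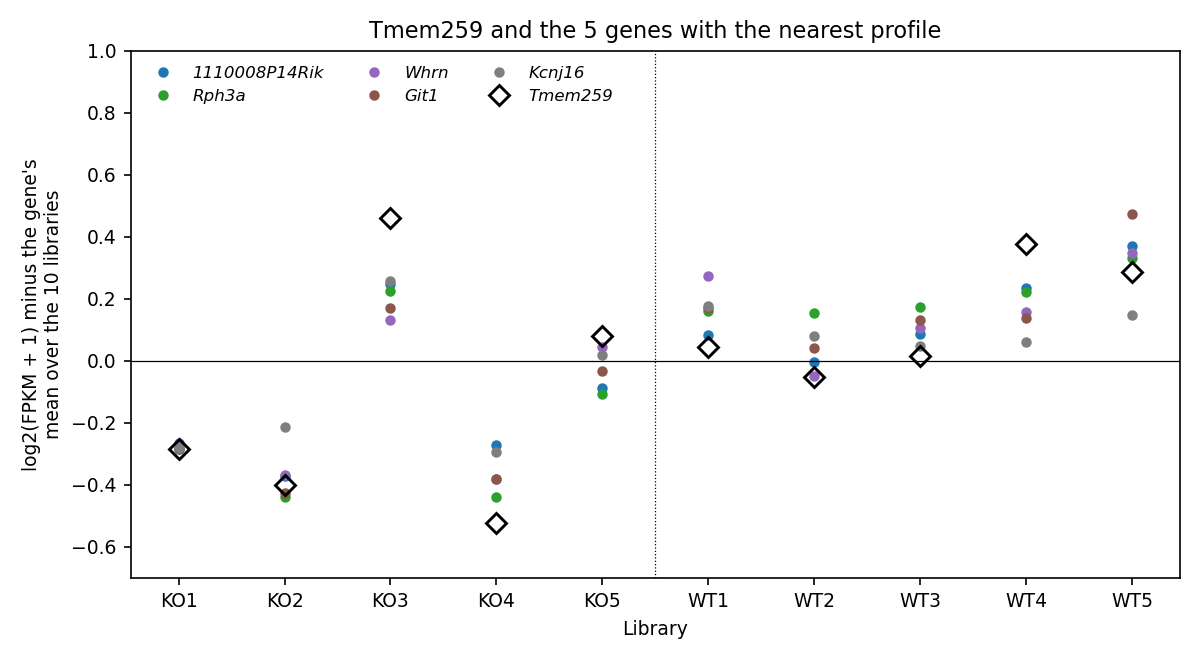
log2(FPKM + 1) minus the mean of each gene over the 10 libraries, for Tmem259 (open diamonds) and the 5 genes nearest to it (points), KO libraries left and WT libraries right. In all 6 genes the library labelled KO3 is the highest KO library.

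Around the ligase, 6 lists of the same degradation route held 79 tested genes, of which 8 were called higher (10.1%) and 1 lower (1.27%), against 9.77% and 3.51% of all genes. The share called higher is close to that background. None of 14 other ER ubiquitin ligases was called by limma, and their median log2 fold change was 0.06, beside 0.08 for all genes. Rnf139, which encodes the TRC8 ligase, averaged 5.41 ± 0.59 FPKM in KO and 4.70 ± 0.43 FPKM in WT (SD, n = 5 each; log2 fold change 0.17, limma adjusted p = 0.154).

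Of 16 genes of the Hrd1 complex and ER adaptors 3 rose and 0 fell, with a median log2 fold change of 0.14. Over all genes 9.77% were called higher and 3.51% lower, with a median of 0.08. With median-of-ratios scaling 1 of the 16 was called higher, and their median was 0.044. Erlin1, which forms with Erlin2 a complex that hands receptors to an ER ligase, measured 5.19, 4.87, 5.04, 5.48 and 5.31 FPKM in KO1 to KO5, against 3.42, 4.55, 3.64, 3.81 and 3.52 FPKM in WT1 to WT5. Its groups did not overlap, as was so with KO above WT for 5.70% of all genes. The log2 fold change of Erlin1 reached 0.37 (limma adjusted p = 0.0186), and the gene stayed called with median-of-ratios scaling (adjusted p = 0.0231). It was not called when KO2, KO4 or WT1 was left out. Its partner Erlin2 averaged 13.2 ± 1.37 FPKM in KO and 11.0 ± 0.32 FPKM in WT (SD, n = 5 each; log2 fold change 0.23, limma adjusted p = 0.0435). Derl1, a membrane protein of the exit channel, averaged 19.2 ± 2.84 FPKM in KO and 14.7 ± 1.33 FPKM in WT (SD, n = 5 each; log2 fold change 0.35, limma adjusted p = 0.0356).

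Of 24 Vcp cofactors 1 rose, where 9.77% of all genes were called higher and 3.51% lower. It was Nsfl1c, which encodes p47, at 40.2 ± 1.73 FPKM in KO and 34.9 ± 1.84 FPKM in WT (SD, n = 5 each; log2 fold change 0.20, limma adjusted p = 0.0324). Its groups did not overlap, as held with KO above WT for 5.70% of all genes. Of 7 further conjugating enzymes 1 rose, Ube2d2a, a relative of Ube2d3, at 40.6 ± 2.78 FPKM in KO and 35.3 ± 1.91 FPKM in WT (SD, n = 5 each; log2 fold change 0.19, limma adjusted p = 0.0475). Ube2d3 shares a run of up to 42 bases with Ube2d2a, over 0.368% of its 31-base windows. Of 10 genes of the BAG6 complex and ubiquitin shuttles, which guard extracted proteins on their way to the proteasome, 1 rose and 1 fell. Get4, of the BAG6 complex, averaged 17.8 ± 1.15 FPKM in KO and 15.2 ± 0.79 FPKM in WT (SD, n = 5 each; log2 fold change 0.21, limma adjusted p = 0.0357). Ubqln4, a shuttle gene, averaged 43.6 ± 5.56 FPKM in KO and 54.5 ± 3.02 FPKM in WT (SD, n = 5 each; log2 fold change -0.32, limma adjusted p = 0.0253), and stayed called with median-of-ratios scaling (-0.42, adjusted p = 0.0232).

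Of 8 genes for clients reported for membralin, RNF185 or RNF5, 2 rose, where 9.77% of all genes were called higher. With median-of-ratios scaling 0 of the 8 were called. Slc38a2, a neutral amino acid transporter gene whose protein is a client of RNF5 in human cells, measured 29.1, 29.6, 27.7, 36.9 and 27.4 FPKM in KO1 to KO5, against 23.7, 24.2, 26.1, 24.5 and 24.8 FPKM in WT1 to WT5. The groups did not overlap, as was so with KO above WT for 5.70% of all genes (log2 fold change 0.27, limma adjusted p = 0.0359). Sting1, the adaptor gene of cytosolic DNA sensing, averaged 1.56 ± 0.23 FPKM in KO and 1.13 ± 0.08 FPKM in WT (SD, n = 5 each; log2 fold change 0.26, limma adjusted p = 0.0482). Cyp51, a sterol synthesis gene, had a log2 fold change of -0.02 (limma adjusted p = 0.916), and Ncstn, the nicastrin gene of gamma-secretase, had 0.09 (adjusted p = 0.306). These are transcript levels and say nothing of how fast the client proteins are degraded.

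**Figure D4:**
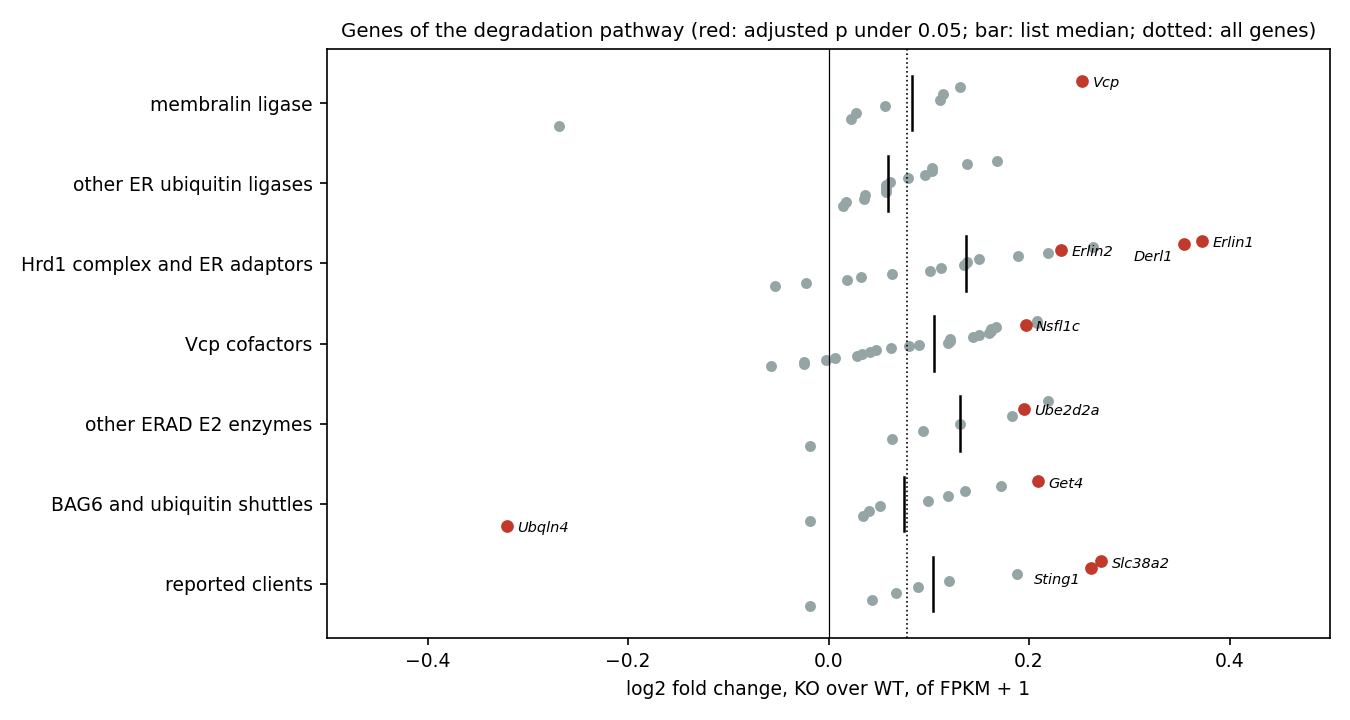
log2 fold change of FPKM + 1, KO over WT, of each tested gene in the membralin ligase list and 6 related lists; red points have a limma adjusted p under 0.05, short bars are list medians and the dotted line is the median of all genes. In the 6 related lists 8 genes are called higher and Ubqln4 is called lower.

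The calls in these lists depend on scaling and on single libraries. With median-of-ratios scaling 2 of the 79 genes stayed past the threshold, Erlin1 and Ubqln4, and over all genes the calls changed from 1417 higher and 509 lower on the FPKM scale to 608 higher and 945 lower. Leaving out 1 library gave between 0 and 21 called genes in the 6 lists. The number was 0 without KO2, KO4 or WT1, so Erlin1 and Ubqln4 were not called there either. Without the library labelled KO3 it was 20 higher and 1 lower of 79, where 19.6% of all genes were called higher and 6.36% lower.

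The libraries held between 22968013 and 27567361 fragments in KO and between 22793058 and 28827871 in WT. Defining markers of excitatory neurons, deep layer motor cortex, astrocytes, oligodendrocytes, microglia and endothelium were all detected. Summed excitatory neuron markers ran from 1368 to 1501 FPKM in KO and from 1518 to 1828 FPKM in WT, with 2 of 5 called lower and the library labelled KO3 highest of its group. Summed astrocyte markers ran from 827 to 1051 FPKM in KO and from 908 to 1040 FPKM in WT, with 1 of 6 called higher. Summed oligodendrocyte markers ran from 1008 to 1517 FPKM in KO, with the library labelled KO3 highest of its group, and from 1321 to 1666 FPKM in WT, with 0 of 4 called and a median log2 fold change of -0.31. Summed deep layer markers ran from 51.3 to 76.1 FPKM in KO and from 36.6 to 58.9 FPKM in WT, with 1 of 3 called higher and a median log2 fold change of 0.36. Summed striatal markers ran from 284 to 395 FPKM in KO and from 122 to 379 FPKM in WT, with 1 of 5 called higher, and summed olfactory bulb markers from 6.13 to 46.5 FPKM in KO and from 3.30 to 21.4 FPKM in WT, with 0 of 5 called. For olfactory bulb markers KO1, KO2, KO4 and the library labelled KO3 summed to 22.3, 46.5, 30.5 and 30.6 FPKM. All of these lay above every WT library, while KO5 did not. For striatal markers WT2 reached 379 FPKM, and the other WT libraries, at 122 to 201 FPKM, lay below every KO library. The library labelled KO3 summed to 969 FPKM for astrocyte, 56.0 FPKM for deep layer and 284 FPKM for striatal markers, each within the WT range. It was not alone in this. KO4 for astrocyte (988 FPKM) and KO5 for deep layer markers (51.3 FPKM) also lay within the WT range. For striatal markers so did KO1, KO4 and KO5 (352, 303 and 330 FPKM). Each count rests on 3 to 6 genes, and over all genes tested 9.77% were called higher and 3.51% lower. No marker of these lists was at 0 in all libraries. With a score of the olfactory bulb markers in the model, Vcp had a log2 fold change of 0.25 (limma adjusted p = 0.130) and Tmem259 did not pass. With the same score and without the library labelled KO3, Vcp passed at 0.27 (limma adjusted p = 0.0469) and Tmem259 did not at -0.29 (adjusted p = 0.209). With the score and all 10 libraries 0 of the 14497 genes tested were called, so no list gene was, Erlin1 and Ubqln4 included. With the score and without the library labelled KO3, 2020 genes were called. The score was higher in KO1, KO2, KO4 and the library labelled KO3 than in every WT library. Score and genotype therefore cannot be fully told apart. Other parts of tissue composition were not tested.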

How the data were processed

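Per the labels' protocols, a Kurabo kit yielded total RNA of motor cortex, from which NEBNext Ultra libraries were built. Both mm10 and DESeq2 appear in the submitters' processing notes without a stated role. The sources used here name no aligner, counting tool or annotation release. Multiplied by gene length and divided by 1 step per library, the deposited FPKM came out as whole fragments (tolerance 0.02) for 100% of nonzero entries. Gene length in bases is a column of the deposited table, per the file headers.

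The KO and WT libraries were compared by limma 3.58.1 (R 4.3.3; lmFit and eBayes with trend) on log2(FPKM + 1), for 14497 genes averaging 0.5 FPKM or more, with genotype as the sole term and Benjamini-Hochberg adjustment over all genes. Fold changes on this scale understate changes of low genes. Exact tests permuted the 252 assignments of 5 against 5, or 126 of 4 against 5. P-values set the difference between KO and WT against the variation between these libraries.

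The members and lists were chosen with earlier results of these data known. The text names the 8 members, genes overlapping a member, the 5 nearest profiles, and called genes, or else the 2 of lowest p, in each list. Vcp-rs, Cyp51, Ncstn and March6 fall outside this rule and were picked once their values were known. Gfap also falls outside it and was used to check the library labelled KO3. 1 gene that this rule names is not reported here. 1 listed gene, Hm13, did not match. Sequences are RefSeq promoters (GRCm38.p6) and GENCODE M21 transcripts. 34490 of 35275 gene IDs matched M21. The limma step was checked on simulated counts. Alternatives covered the pseudocount, filter, scaling, variance model, library weights, covariates and each library left out. A voom fit, an olfactory score without the library labelled KO3, and coding lengths were chosen after seeing the data.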

Additional observations from a re-analysis of the deposited data

Results flagged for a closer look

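Of 54 groups of 5 libraries examined, 4 held a library far from the others, where chance gives about 1 in 20. Ubqln4 measured 53.3 FPKM in the library labelled KO3, against 39.2 to 42.4 FPKM in the other KO libraries. Slc38a2 measured 36.9 FPKM in KO4, against 27.4 to 29.6 FPKM in the other KO libraries. Git1 measured 179 FPKM in WT5, against 133 to 145 FPKM in the other WT libraries. Grin3b measured 0.0620 FPKM in WT5, against 0.200 to 0.222 FPKM in the other WT libraries.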

How the results depend on the processing

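The FPKM scale with all 10 libraries gave 1926 called genes, 1 called partner of membralin (Vcp) and 9 called genes in the 6 lists. Called genes numbered 3557 with library weights, 465 with no filter, 0 with the olfactory bulb score as covariate (3336 at an unadjusted p under 0.05), 2020 with that score and without the library labelled KO3, and 1271 with a replicate block. A voom fit of recovered fragments called 2128. Leaving out 1 library gave between 2 and 3763 called genes, 0 to 1 called partners and 0 to 21 called list genes. It was 2 without WT1, KO2 or KO4, and 3763 without the library labelled KO3. Called partners numbered 0 under median-of-ratios scaling, no filter, the olfactory score, quantile normalization and the replicate block, and median-of-ratios scaling left 2 list genes.

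The adjusted limma p of Vcp was between 0.0074 and 0.130 over all alternatives, with a log2 fold change between 0.16 and 0.29. Tmem259 ran from -0.42 to -0.17 with 1 library left out, with an adjusted p between 0.0278 and 0.651 over all alternatives; among these it passed only without the library labelled KO3 and no other change. Reversed signs were Tmub1 (-0.031 under both median-of-ratios scaling and quantile normalization), Tmub2 (-0.072 with median-of-ratios scaling, -0.031 with quantile normalization, -0.095 with the olfactory score, -0.077 with that score and without the library labelled KO3) and Ube2k (-0.066 with median-of-ratios scaling, -0.021 with quantile normalization). With 1 library left out Tmub2 ran from -0.020 to 0.060, Ube2k from -0.0084 to 0.051, the Rnf5 to Rnf185 ratio from -0.050 to 0.033, Tmub1 to Tmub2 from -0.054 to 0.11, Tmem259 to Rnf185 from -0.57 to -0.30 and Ube2k to Ube2d3 from -0.15 to -0.075. The cause was not tested.

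The correlation of deviations between replicates of the same number was 0.138, -0.043, -0.057, 0.139 and 0.114 for numbers 1 to 5. KO4 and KO5 correlated best with their own number, KO1, KO2 and KO3 with another. The labels give the numbers no shared source, so they were not taken as pairs. In both groups Y-linked transcripts were near 0 in replicates 1 to 3 and present in 4 and 5. The limma adjusted p of Vcp was 0.0604 with the replicate block and 0.0286 with Y-linked signal as covariate. Depth limits Tmub1 most, at 272 fragments in its lowest library.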

Other observations

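The deposited table holds 27 rows whose gene symbol reads as a date, as spreadsheet programs write symbols such as those of the March and Sept families. March6, an ER ubiquitin ligase gene of the lists above, is among them and was found by its gene ID. The gene length of the table equals the longest GENCODE M21 transcript for 73.0% of the 34490 matched IDs, whatever the type of that transcript.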
